A study of Mus musculus with 8 samples.

Results

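The genes described here are 35 genes of protein folding in the endoplasmic reticulum (ER) and of the unfolded protein response. They were taken by name from the probes of a mouse array, and are 35 of the 19773 genes tested. RNA came from the cortex of 8 male C57BL/6NCr mouse pups (an inbred strain) at postnatal day 1.5, and each pup was measured on 1 one-colour Agilent array. In the 4 ischemia pups, clips had closed the uterine arteries of the anesthetised mother for 14 min at E16.5. The 4 control pups had the same strain, sex, age and tissue. The labels do not say whether their mothers underwent anesthesia or surgery without clips, nor do they name litters. The p-values therefore rest on the spread among these pups, and a litter effect cannot be told apart from the group difference.

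The ER folds secreted and membrane proteins with a set of chaperones and of enzymes that form disulfide bonds. When unfolded proteins build up, sensors in the ER membrane set off the unfolded protein response. IRE1 (Ern1) splices the mRNA of the factor XBP1, ATF6 is cut to release a transcription factor, and PERK (Eif2ak3) phosphorylates eIF2, which slows translation and raises the factor ATF4. The first 2 branches mainly induce chaperones and ER-associated degradation (ERAD), the disposal route for misfolded proteins. ATF4 induces genes of amino acid supply, and CHOP (Ddit3), in a program called the integrated stress response. In the developing cortex this machinery serves newborn neurons that make large amounts of membrane and secreted protein.

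Many chaperone promoters carry the ER stress element, a site at which ATF6 with the CCAAT-binding factor NF-Y, and XBP1, are known to act. The element was searched as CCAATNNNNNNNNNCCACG on both strands of the RefSeq promoters (build GRCm38.p6, from 250 bases before to 50 bases after each start site), which held 31 of the 35 genes. The promoters of Atf6, Manf, Hyou1 and Derl1 are named only. The element stood in 9 of 31 promoters (29.0%), against 37 of 27025 gene symbols in the promoter table (0.137%). Since the element was first described in promoters of this kind, its share is a description of the genes chosen. The sequences are shown because 5 of the 6 genes that were lower in ischemia at an unadjusted p under 0.05, described below, are among these 9. Over all genes 7.65% were lower at that p. With each array scaled to its median, none of the 35 were. Of 9 other measured genes with the element, outside the 35, 0 were lower at that p. The sequences run 5′ to 3′ on the strand of the gene. Capitals mark the element, which appears as its reverse complement in Calr, Creld2, Derl3 and the second copy of Hsp90b1.
Hspa5 (chr2:34771870-34772089, plus strand): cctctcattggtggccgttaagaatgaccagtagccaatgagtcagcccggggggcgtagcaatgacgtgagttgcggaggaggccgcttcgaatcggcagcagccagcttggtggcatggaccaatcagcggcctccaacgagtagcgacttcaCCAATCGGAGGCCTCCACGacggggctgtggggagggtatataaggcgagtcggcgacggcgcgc
Hsp90b1 (chr10:86705513-86705676, minus strand): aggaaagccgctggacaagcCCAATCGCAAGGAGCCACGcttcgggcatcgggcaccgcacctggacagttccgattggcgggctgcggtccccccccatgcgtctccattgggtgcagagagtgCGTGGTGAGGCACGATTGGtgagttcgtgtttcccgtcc
Calr (chr8:84847055-84847113, minus strand): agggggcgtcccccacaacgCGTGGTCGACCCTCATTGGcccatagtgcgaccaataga
Creld2 (chr15:88819500-88819558, plus strand): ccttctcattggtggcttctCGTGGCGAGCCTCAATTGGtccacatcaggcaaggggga
Pdia6 (chr12:17266471-17266529, plus strand): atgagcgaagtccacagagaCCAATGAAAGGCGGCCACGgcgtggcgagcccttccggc
Derl3 (chr10:75893222-75893280, plus strand): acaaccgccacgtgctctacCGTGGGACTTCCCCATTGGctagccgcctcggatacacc
Canx (chr11:50325780-50325838, minus strand): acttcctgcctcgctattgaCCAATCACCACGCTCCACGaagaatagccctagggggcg
Dnajc3 (chr14:118937807-118937865, plus strand): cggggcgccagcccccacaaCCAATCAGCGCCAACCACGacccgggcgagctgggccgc
Syvn1 (chr19:6046512-6046570, plus strand): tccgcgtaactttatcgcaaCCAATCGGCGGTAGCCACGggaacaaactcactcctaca
The first base of the element lay 65 bases before the start site in Hspa5 and 212 bases before it in Hsp90b1, with the second copy nearer the start. It lay 162 bases before the start in Calr, 126 in Creld2, 98 in Pdia6, 156 in Derl3, 145 in Canx, 105 in Dnajc3 and 44 in Syvn1.

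All 8 arrays lay on 1 slide and were scanned in 1 run. Ischemia arrays held one row of the slide and control arrays the other, per the file headers, so slide row and group cannot be told apart. The 75th percentile of the processed signal lay between 358.5 and 393.3 on ischemia arrays and between 305.6 and 391.4 on control arrays, and 0 spots were saturated. The scanner software marked 165 to 189 outlier spots per ischemia array and 134 to 144 per control array. Each of 10 markers of cortical projection neurons was well above background on all 8 arrays. Ischemia replicate 4 stood apart in choroid plexus markers, with a summed level of 118 times the array's 75th percentile, against at most 3.71 in control arrays. The highest sum of the meninges markers, also within the ischemia group, was 17.7, against at most 6.63 in control arrays. Counts are therefore also given without ischemia replicates 1 and 4. In bulk tissue, fewer cells of a type and less RNA per cell cannot be told apart.

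No gene of the 35 passed the adjusted threshold of 0.05 in limma. Over all genes 1 passed (0.00506%), a non-coding feature known only by its position. Each of the 35 genes had a probe well above background on 8 of 8 arrays, so none was lost to the filter on dim probes. Of the 35, 27 had a lower mean in ischemia than in control (77.1%), against 57.1% of all genes. At an unadjusted p under 0.05, 6 were lower in ischemia (17.1%), where 7.65% of all genes were. The count on the higher side was 0 of 35, where 3.25% of all genes were higher. The groups did not overlap in 6 genes. In 5 of these (14.3%) every ischemia array lay below every control array, which held for 4.28% of all genes. In 1 gene, Atf4, every ischemia array lay above, which held for 2.27% of all genes. The median log2 difference, ischemia minus control, was -0.09 over the 35 genes and -0.02 over all genes. These counts depended on the scaling. With each array scaled to its median instead of its 75th percentile, 0 of the 35 were lower at an unadjusted p under 0.05 and 0 lay below every control array, where 1050 of all genes were lower at that p and 2.61% lay below. With quantile normalization the counts were 3 and 0, where 1366 of all genes were lower at that p and 3.76% lay below. The median over the 35 was -0.08 with either scaling. With normexp background correction 1 of the 35 lay below every control array, against 4.39% of all genes. Single arrays weighed on the count of 6 as well. It was 1 without ischemia replicate 2, and 3 without ischemia replicate 3, control replicate 2 or control replicate 4. Over all genes, 1513 were lower at that p with all 8 arrays. That number was 1152 without ischemia replicate 2, 1199 without ischemia replicate 3, 1119 without control replicate 2 and 1769 without control replicate 4. Without ischemia replicates 1 and 4, 7 of the 35 and 1560 of all genes were lower at that p. Then 10 of the 35 lay below every control array, as did 13.7% of all genes. Without ischemia replicate 1 alone, 9 genes lay below every control array, as did 8.25% of all genes.

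**Figure D1:**
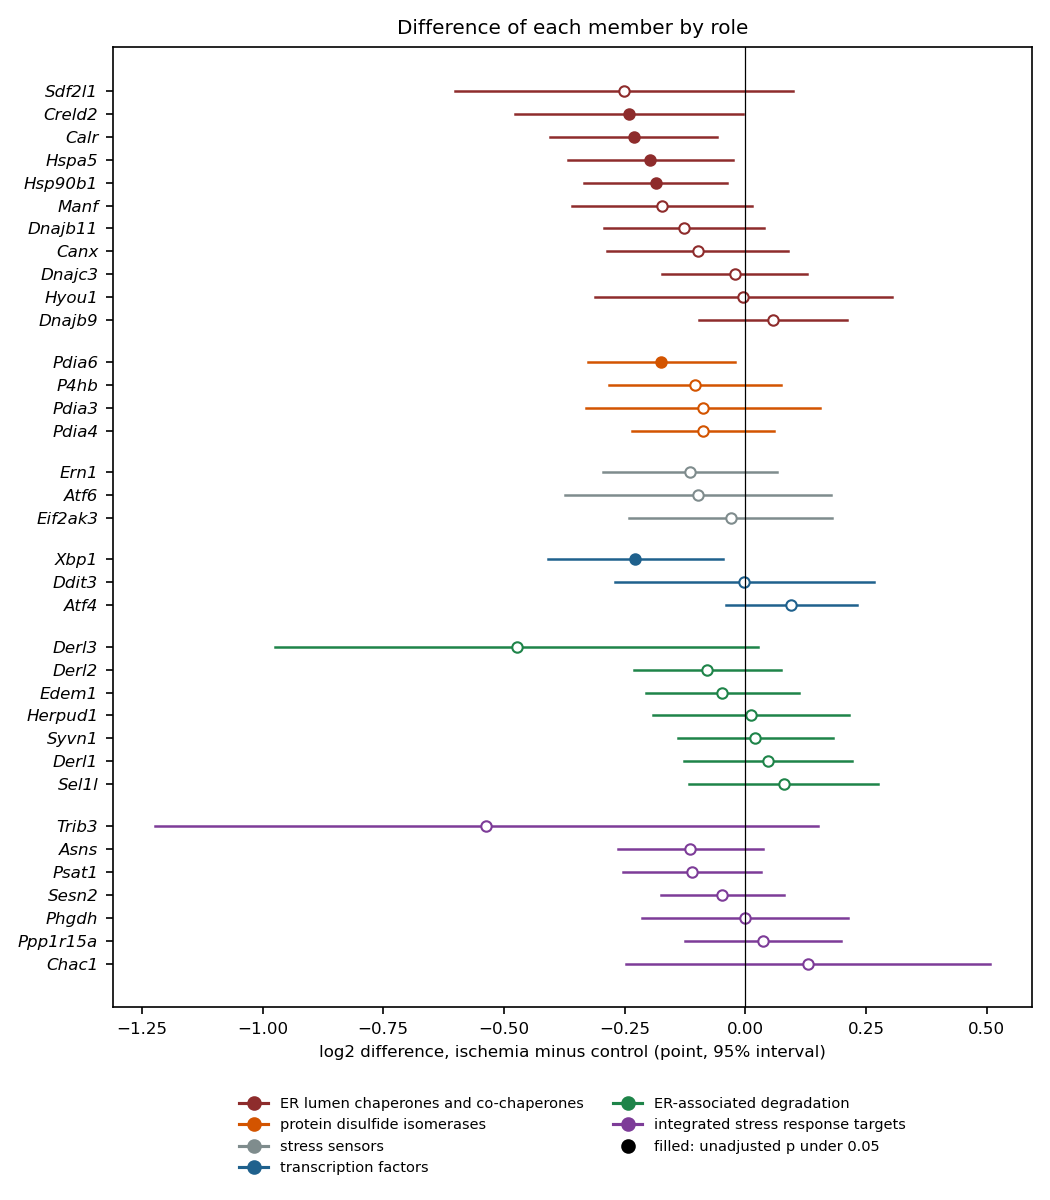
Log2 difference, ischemia minus control, of the 35 genes by role, with 95% intervals from limma (4 arrays per group); filled points have an unadjusted p under 0.05. The 6 filled points, Calr, Xbp1, Hsp90b1, Hspa5, Pdia6 and Creld2, all lie left of 0, and none of the 35 genes passed the adjusted threshold.

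The chaperones and co-chaperones of the ER lumen held 4 of the 6 genes that were lower at an unadjusted p under 0.05. Of 11 genes, 10 had a lower mean in ischemia and 3 had all ischemia arrays below all control arrays. Their median log2 difference was -0.17. Over all genes 57.1% had a lower mean, 7.65% were lower at that p and 4.28% lay below every control array. Levels below are log2 of the processed signal over the array's 75th percentile, for 1 probe per gene, and are not comparable between genes. Probe positions are those of the files in mm9.

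Hspa5 encodes BiP, the main ER chaperone of the HSP70 family and the regulator that keeps the stress sensors inactive. Its probe (chr2:34631913-34631972) gave 5.04, 4.79, 4.91 and 5.03 in ischemia replicates 1 to 4, against 5.09, 5.20, 5.07 and 5.20 in control replicates 1 to 4. All ischemia arrays were below all control arrays, by a margin of only hundredths in ischemia replicates 1 and 4. The difference was -0.20 (SE 0.07, limma adjusted p = 0.400), a ratio of 0.872.

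Hsp90b1, which encodes GRP94, the HSP90 of the ER, behaved alike in direction. Its levels were 4.35, 4.30, 4.43 and 4.46 in the ischemia arrays, against 4.47, 4.57, 4.60 and 4.65 in the control arrays (probe at chr10:86153770-86153829). The groups did not overlap, but ischemia replicate 4 and control replicate 1 differed by little. The difference was -0.19 (SE 0.06, limma adjusted p = 0.375), a ratio of 0.879.

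Calr encodes calreticulin, the soluble lectin chaperone that binds newly made glycoproteins and stores calcium. The Calr probe (chr8:87366192-87366251) gave 3.66, 3.34, 3.46 and 3.53 in ischemia, against 3.69, 3.69, 3.74 and 3.79 in control. Ischemia replicate 2 was lowest, ischemia replicate 1 lay close to the controls, and the groups did not overlap. Its difference of -0.23 (SE 0.08, limma adjusted p = 0.352) had the smallest unadjusted p of the 35 genes, 0.0149 in limma, and was number 839 of all genes in that order.

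Creld2, an ER-resident protein that ER stress induces, had levels of 3.84, 3.45, 3.45 and 3.76 in ischemia arrays, against 3.92, 3.87, 3.76 and 3.90 in control arrays (probe at chr15:88656997-88657056). Here 3 of 4 ischemia arrays lay below every control array, and replicate 1 lay among the controls. The difference was -0.24 (SE 0.10, limma adjusted p = 0.450). 

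The remaining chaperones did not reach an unadjusted p of 0.05. Manf, a secreted factor that is held in the ER by BiP and protects neurons, differed by -0.17 (SE 0.08). Its levels were 2.41, 2.12, 2.08 and 2.24 in ischemia, against 2.46, 2.37, 2.35 and 2.36 in control. In 3 of 4 ischemia arrays it lay below every control. Sdf2l1, a partner of BiP and of the co-chaperone Dnajb11, differed by -0.25 but with an SE of 0.15: its levels ranged from -1.19 to -0.44 in ischemia and from -0.74 to -0.51 in control. Dnajb11, which stimulates BiP's ATPase, differed by -0.13. The membrane-bound relative of calreticulin, calnexin (Canx), differed by -0.10. The differences were near 0 for the co-chaperone Dnajc3 (-0.02) and for Hyou1 (0.00, with a 95% interval from -0.31 to 0.30), the nucleotide exchange factor of BiP. Of the 11, only Dnajb9, a co-chaperone that recruits BiP to the sensor IRE1, had a higher mean in ischemia, by 0.06. A second Dnajb9 probe gave 0.00.

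The disulfide isomerases make and rearrange disulfide bonds in folding proteins. They were lower on average in 4 of 4 genes, against 57.1% of all genes, with a median of -0.10. Pdia6, an isomerase that also damps the sensor IRE1, was the one with an unadjusted p under 0.05, where 7.65% of all genes were lower. Its levels were 5.89, 5.68, 5.86 and 5.91 in ischemia, against 5.97, 6.05, 5.99 and 6.03 in control (probe at chr12:17291070-17291129). The groups did not overlap, with ischemia below control as in 4.28% of all genes, and ischemia replicate 2 was again lowest. The difference was -0.17 (SE 0.07, limma adjusted p = 0.403). A second Pdia6 probe also gave -0.17, with overlapping groups (SE 0.09). P4hb, the founding protein disulfide isomerase, differed by -0.10, Pdia3, which works on glycoproteins with calnexin and calreticulin, by -0.09, and Pdia4 by -0.09. None of these 3 separated the groups.

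**Figure D2:**
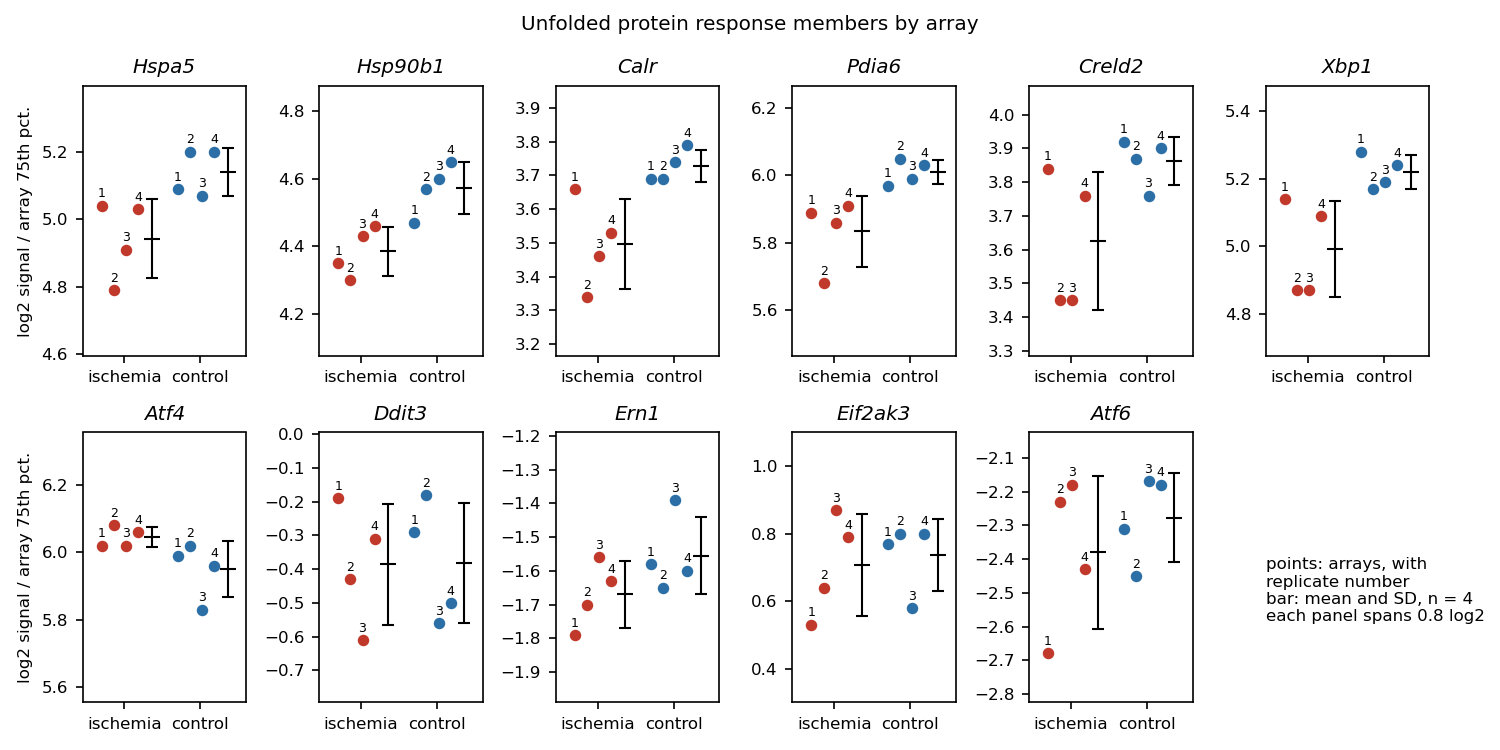
Log2 signal over the array's 75th percentile in each array (points, with the replicate number; bars are mean and SD, n = 4), ischemia left of control, for 5 chaperone or isomerase genes, 3 transcription factors and 3 sensors. Every panel spans 0.8 log2 units; Hspa5, Hsp90b1, Calr, Pdia6 and Xbp1 have all ischemia arrays below all control arrays, and Atf4 has them above.

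The 3 sensors showed no separation between the groups. Ern1 had -1.79, -1.70, -1.56 and -1.63 in ischemia, against -1.58, -1.65, -1.39 and -1.60 in control. The difference was -0.12 (SE 0.08), with 2 ischemia arrays below every control. The 3 other Ern1 probes were well above background on no array. Eif2ak3 had 0.53, 0.64, 0.87 and 0.79 in ischemia, against 0.77, 0.80, 0.58 and 0.80 in control, a difference of -0.03 (SE 0.09) with ischemia replicates on both sides of the controls. Atf6 had -2.68, -2.23, -2.18 and -2.43 in ischemia, against -2.31, -2.45, -2.17 and -2.18 in control. Its difference was -0.10 (SE 0.12), of which most came from ischemia replicate 1. Without that replicate it was 0.00. Sensor activity, which lies in cleavage and phosphorylation, was not measured by these arrays.

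Among the transcription factors, Xbp1 and Atf4 lay apart from the controls in opposite directions. Xbp1, at 5.14, 4.87, 4.87 and 5.09 in ischemia, against 5.28, 5.17, 5.19 and 5.24 in control, was lower in every ischemia array than in any control array (probe at chr11:5425816-5425875). Ischemia replicates 2 and 3 were lowest. The difference was -0.23 (SE 0.08, limma adjusted p = 0.375), a ratio of 0.854. Splicing of its mRNA, the step that yields the active factor, was not analysed here. Atf4 levels were 6.02, 6.08, 6.02 and 6.06 in ischemia, against 5.99, 6.02, 5.83 and 5.96 in control (probe at chr15:80087902-80087961). All ischemia arrays were above all control arrays, but ischemia replicate 3 and control replicate 2 differed by less than the last digit shown. The difference was 0.10 (SE 0.06, unadjusted p = 0.146 and adjusted p = 0.616 in limma). A second Atf4 probe gave 0.03 (SE 0.10) with overlapping groups, and the separation was lost with median scaling, normexp and the authors' value table. ATF4 is controlled mainly at translation, which was not measured. Ddit3, the pro-death factor CHOP downstream of ATF4, had -0.19, -0.43, -0.61 and -0.31 in ischemia, against -0.29, -0.18, -0.56 and -0.50 in control. These values overlapped over almost their whole range. The difference was 0.00 with a 95% interval from -0.27 to 0.27 in limma.

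The 7 genes of ERAD gave 3 lower and 4 higher means, with a median of 0.01, and 0 with an unadjusted p under 0.05. Over all genes 7.65% were lower and 3.25% higher at that p. The ubiquitin ligase Syvn1 and its partner Sel1l, which form the core of the disposal channel, differed by 0.02 and 0.08. Herpud1, a scaffold of that complex and one of the most stress-inducible ERAD genes, differed by 0.01 (SE 0.09). Its levels were 2.07, 2.14, 2.25 and 1.95 in ischemia, against 2.14, 2.22, 2.07 and 1.93 in control. The groups overlapped throughout. Its promoter held no ER stress element of the first kind. It held the related element II, ATTGG and CCACG with 1 base between them, shown here in capitals. This motif, added after the values had been seen, stood in 2 member promoters (Herpud1 and Dnajb11) and 0.0444% of gene symbols. Dnajb11 differed by -0.13. Its sequence is not shown because the match reached past the start site.
Herpud1 (chr8:94386357-94386407, plus strand): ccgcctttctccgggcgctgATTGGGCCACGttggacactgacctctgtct
Edem1, which extracts misfolded glycoproteins from the folding cycle, differed by -0.05. Of the derlins, membrane proteins of the disposal channel, Derl1 differed by 0.05 and Derl2 by -0.08. Their further probes gave -0.09 for Derl1 and 0.08 and -0.09 for Derl2, so the direction was not settled for either. Derl3 differed by -0.47 (SE 0.22, limma adjusted p = 0.479). Its levels were -2.82, -3.14, -2.98 and -2.96 in ischemia, against -2.86, -2.12, -2.04 and -2.98 in control. Control replicates 2 and 3 were high, while control replicates 1 and 4 lay within the ischemia range.

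The targets of the integrated stress response, 7 genes, gave 5 lower and 2 higher means with a median of -0.05, and 0 with an unadjusted p under 0.05. Over all genes 7.65% were lower and 3.25% higher at that p. Trib3, a pseudokinase induced by ATF4 and CHOP, differed by -0.54 with an SE of 0.30. It had -1.98, -1.97, -2.68 and -2.32 in ischemia, against -2.09, -1.88, -2.04 and -0.79 in control. A single array, control replicate 4, lay far above the others, and the difference was -0.23 without it. Chac1, which breaks down glutathione, differed by 0.13 (SE 0.16). Ischemia replicates ranged from 0.13 to 0.84 and control replicates from 0.23 to 0.66. Asns, the asparagine synthetase, differed by -0.11, and the serine synthesis enzymes Psat1 and Phgdh by -0.11 and 0.00. Their second probes gave -0.10 for Psat1 and 0.08 for Phgdh. The eIF2 phosphatase subunit Ppp1r15a (GADD34), which ends the translation block, differed by 0.04, and Sesn2, a sensor of leucine, by -0.05.

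Values by promoter element were as follows. Of the 9 genes with the ER stress element, 8 had a lower mean in ischemia, 5 had an unadjusted p under 0.05 and 4 had all ischemia arrays below all control arrays. Their median log2 difference was -0.19, with a range from -0.47 to 0.02. Of the 22 genes whose window lacked the element, 16 had a lower mean, 1 (Xbp1) had an unadjusted p under 0.05 and the median was -0.06. Over all genes, 7.65% were lower at that p and 4.28% lay below every control array. With median scaling, as given above, 0 of the 35 were lower at that p and 0 lay below every control array. With quantile normalization, too, 0 of the 35 lay below every control array. Of 9 other measured genes with the element, outside the 35, 7 had a lower mean in ischemia, 0 had an unadjusted p under 0.05 in limma and the median was -0.08. Within the 35, presence of the element and the role of a chaperone or isomerase coincided in 7 of the 9 genes, and the other 2, Syvn1 and Derl3, belong to ERAD. The shorter boxes were frequent: CCACG stood in 83.9% of the 31 promoters, against 35.5% of gene symbols, and CCAAT in 83.9%, against 41.1%. Every match to the ER stress element is also a match to both. The UPR element TGACGTGG stood in 0 of 31 windows, against 0.714% of gene symbols. TTGCATCA, a composite of C/EBP and ATF sites at which ATF4 can act, stood in 2 (Herpud1 and Chac1), against 1.03% of gene symbols. All were searched on both strands, and a match is a match of letters only.

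**Figure D3:**
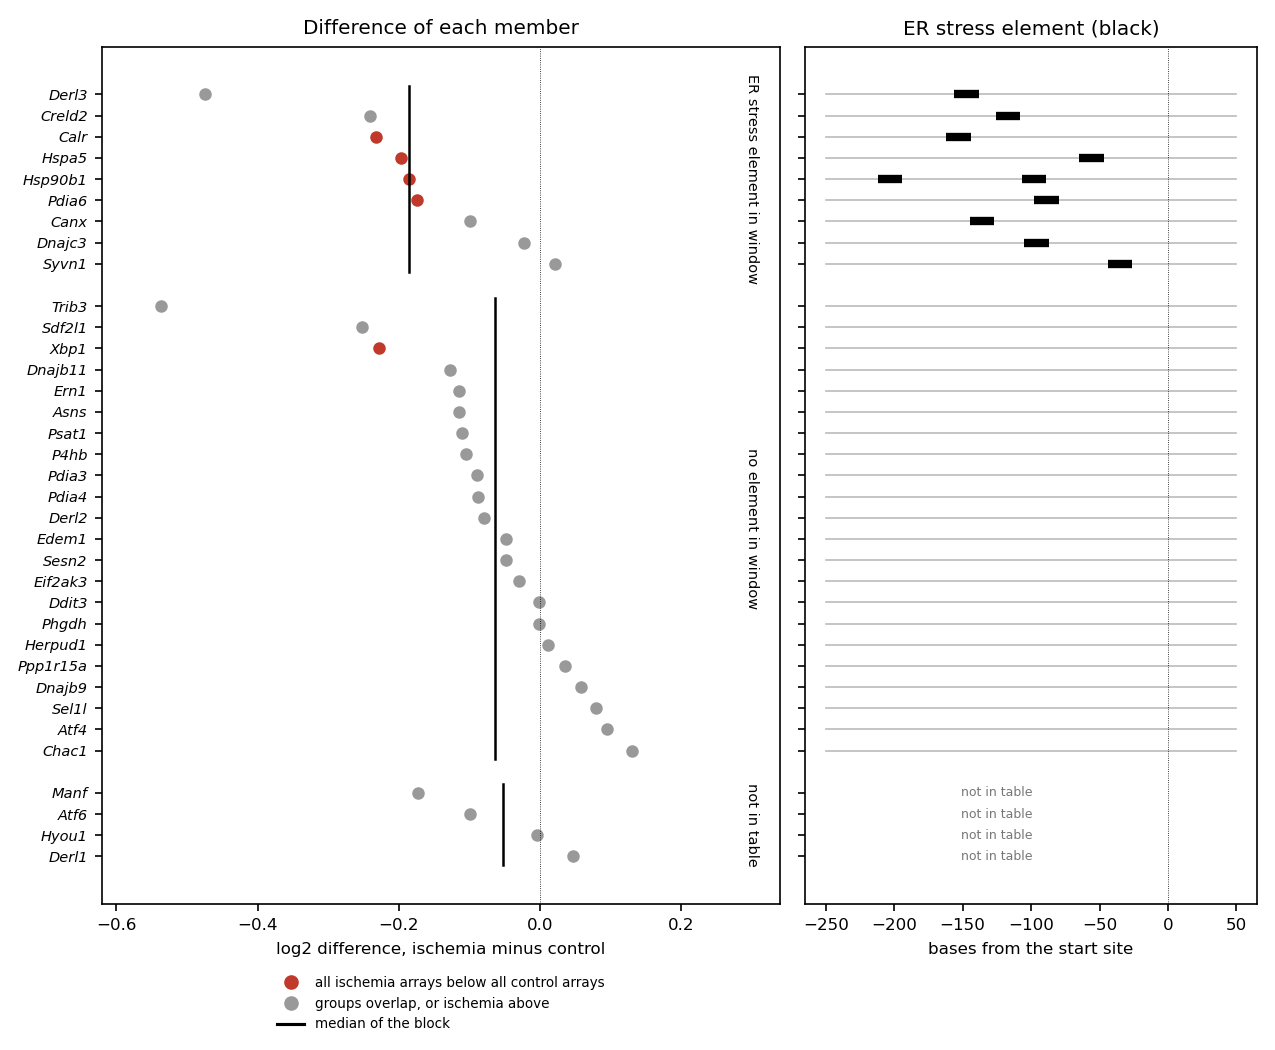
Left, log2 difference, ischemia minus control, of the 35 genes in 3 blocks: ER stress element in the promoter window, no element, and promoter not in the table; black lines are block medians (-0.19 with the element, -0.06 without) and red points have all ischemia arrays below all control arrays. Right, position of each element in bases from the start site, within the window searched, grey line.

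The lower values of chaperones and isomerases did not come equally from the 4 ischemia pups. The median deviation of these 15 genes from their control means was -0.10, -0.27, -0.11 and -0.11 in ischemia replicates 1 to 4, against -0.04, 0.00, -0.01 and 0.06 in control replicates 1 to 4. Ischemia replicate 2 was lowest and the groups did not overlap. The median over all genes did not overlap either, at -0.02, -0.03, -0.02 and -0.02 in ischemia, against 0.00, 0.02, 0.00 and -0.01 in control. The integrated stress response targets had -0.05, 0.01, -0.17 and -0.05 in ischemia, against 0.00, 0.04, -0.11 and 0.05 in control, with overlap and with the lowest values in replicate 3 of either group. As a description over 8 arrays that share one slide, the mean correlation between gene pairs, after removal of group means, was 0.28 within the chaperones and isomerases, 0.43 within the stress response targets and 0.02 between these 2 sets. Over pairs of all genes it was 0.00. Xbp1 had a mean correlation of 0.36 with the chaperones and isomerases, Atf4 -0.15 and Herpud1 -0.33. Pdia6, Hspa5, Calr and P4hb, at 0.48, 0.46, 0.44 and 0.44, followed the other chaperones and isomerases most closely.

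Markers of several cell types moved in the same arrays, and their part in the chaperone values was not tested. Over all genes, 7.65% were lower and 3.25% higher at an unadjusted p under 0.05. Every ischemia array lay below every control array for 4.28% of all genes and above for 2.27%. Markers of dividing cells, 13 of 14 measured, had a lower mean in ischemia for 13 of 13, with 8 at an unadjusted p under 0.05, 5 below every control array (Birc5, Bub1, Ccnb2, Cdk1 and Tk1) and 0 past the adjusted threshold in limma. Their summed level was 37.8 to 42.0 times the array's 75th percentile in ischemia and 42.7 to 49.2 times in control. Their median deviations were -0.27, -0.19, -0.46 and -0.21 in ischemia replicates 1 to 4, against 0.13, 0.02, -0.16 and -0.02 in control. Endothelial markers, 11 of 11 measured, had higher means for 8, with 4 higher and 1 lower at an unadjusted p under 0.05, 2 above and 1 below every control array, and summed levels of 39.7 to 48.3 in ischemia and 42.9 to 46.4 in control. Of the markers of B and plasma cells, which express ER folding genes strongly, 2 of 7 were measured (Cd79a and Prdm1), with summed levels of 0.218 to 0.272 in ischemia and 0.259 to 0.318 in control. Of these, 1 had an unadjusted p under 0.05, Prdm1, with a difference of -0.53. The other, Cd79a, had a higher mean in ischemia. Neither was well above background on all 8 arrays. Jchain, Ms4a1 and Pou2af1 were well above background on no array. Blood cell markers, 6 of 8 measured, had lower means for 6 of 6, 3 at an unadjusted p under 0.05, with a median difference of -0.49 and summed levels of 148 to 249 in ischemia and 198 to 359 in control. Microglial markers, 10 of 10 measured, had higher means for 7, with 3 higher and 1 lower at an unadjusted p under 0.05 and 2 above every control array, and summed to 24.1 to 25.7 in ischemia and 22.0 to 25.4 in control. Choroid plexus markers had a median deviation of 2.03 in ischemia replicate 4, against 0.01 in ischemia replicate 1. Meninges markers had their highest median deviation in ischemia replicate 1, at 0.56, against 0.21 in ischemia replicate 4. Without ischemia replicates 1 and 4 the median over the 35 genes was -0.09. The part of these markers in the values of the 35 genes was not tested.

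**Figure D4:**
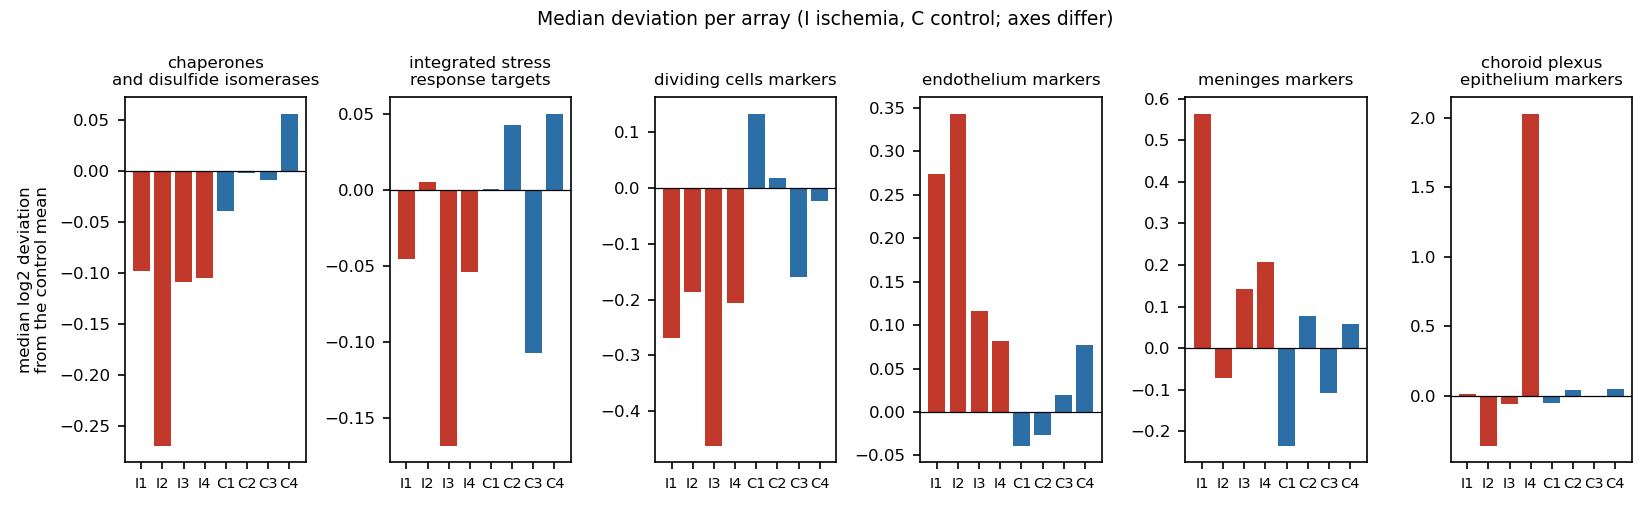
Median log2 deviation from the control mean in each array (I1 to I4 ischemia, C1 to C4 control) for 2 sets of the 35 genes and 4 marker lists; the vertical axes differ. The chaperones and isomerases are lowest in ischemia replicate 2 (-0.27), dividing cell markers in ischemia replicate 3 (-0.46), and choroid plexus markers stand at 2.03 in ischemia replicate 4.

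Other genes of the secretory pathway were read from lists of named genes that leave out the 35. In none of 9 lists did a gene pass the adjusted threshold in limma. Over all genes 57.1% had a lower mean in ischemia. At an unadjusted p under 0.05, 7.65% of all genes were lower and 3.25% higher. Every ischemia array lay below every control array for 4.28% of all genes. Among other ER oxidoreductases and folding enzymes, 16 of 22 had a lower mean in ischemia, with 1 lower and 1 higher at an unadjusted p under 0.05 and a median of -0.06. Erp44, which retains client proteins in the early secretory pathway, differed by -0.16 (SE 0.06) and lay below every control in all ischemia arrays. Txndc5, a thioredoxin-domain isomerase, differed by 0.18 (SE 0.07). In the calnexin cycle and N-glycosylation, 15 of 21 had a lower mean, 2 at an unadjusted p under 0.05, with a median of -0.05. Both of these, Rpn1 at -0.17 and Magt1 at -0.19, are subunits of the oligosaccharyltransferase. The translocon, signal peptidase and related genes of ER entry had 18 of 22 lower means, 2 at an unadjusted p under 0.05, and a median of -0.04. Sec61b, a subunit of the protein channel, had 5.68, 5.64, 5.58 and 5.60 in ischemia, against 5.74, 5.98, 5.91 and 5.76 in control. The groups did not overlap, and the difference was -0.23 (SE 0.07, limma adjusted p = 0.334). Spcs2, of the signal peptidase, differed by -0.17 and did not overlap either. The other ERAD genes were split evenly, 11 lower and 11 higher of 22, with 0 at an unadjusted p under 0.05 and a median of 0.01. Edem2 (-0.29) and Erlec1 (0.19), a mannosidase-family protein and a lectin of that route, had the smallest p.

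Of 18 other ATF4 targets of amino acid synthesis and transport, 14 had a higher mean in ischemia and the median was 0.09. An unadjusted p under 0.05 was reached by 3, all on the higher side. Over all genes 42.9% had a higher mean, 3.25% were higher at that p and 7.65% were lower. Every ischemia array lay above every control array for 2.27% of all genes and below for 4.28%. Cbs, the cystathionine synthase of the transsulfuration pathway, had 3.73, 3.90, 3.44 and 3.49 in ischemia, against 3.16, 3.30, 2.99 and 3.18 in control. Every ischemia array lay above every control array, and the difference was 0.48 (SE 0.12, limma adjusted p = 0.243). Slc38a2, a glutamine and alanine transporter, differed by 0.23 (SE 0.07) with no overlap. Aldh18a1, an enzyme of proline synthesis, differed by 0.20 (SE 0.08) with overlap. The asparagine and serine synthesis genes among the 35 did not share this direction, as given above. The eIF2 kinases, phosphatases and eIF2B had 5 lower and 8 higher means over 13 genes, with a median of 0.01. At an unadjusted p under 0.05, 1 was lower, the eIF2 subunit Eif2s1, at -0.18. It lay below every control in all ischemia arrays, and Eif2s2, another subunit, differed by -0.14. The aminoacyl-tRNA synthetases, which charge tRNAs and are partly ATF4 targets, had a median of 0.01 over 18 genes, with Dars at -0.22 and Yars at -0.38 below an unadjusted p of 0.05 on the lower side and Iars, at 0.15, on the higher side. The other stress transcription factors and ER stress death genes had a median of 0.02 over 23 measured of 30, with 1 lower at an unadjusted p under 0.05. That gene, Atf5, differed by -0.20 (SE 0.07) and lay below every control in all ischemia arrays, and Cebpg differed by 0.10. Cytosolic and mitochondrial heat shock proteins, a stress response of other compartments, had a median of 0.02 over 18 genes and 2 higher at an unadjusted p under 0.05. These were Hspb1, a small heat shock protein, at 0.36 (SE 0.11) and the mitochondrial chaperone Hspa9 at 0.14, both without overlap. In 1 other gene of this list every ischemia array lay below every control array.

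**Figure D5:**
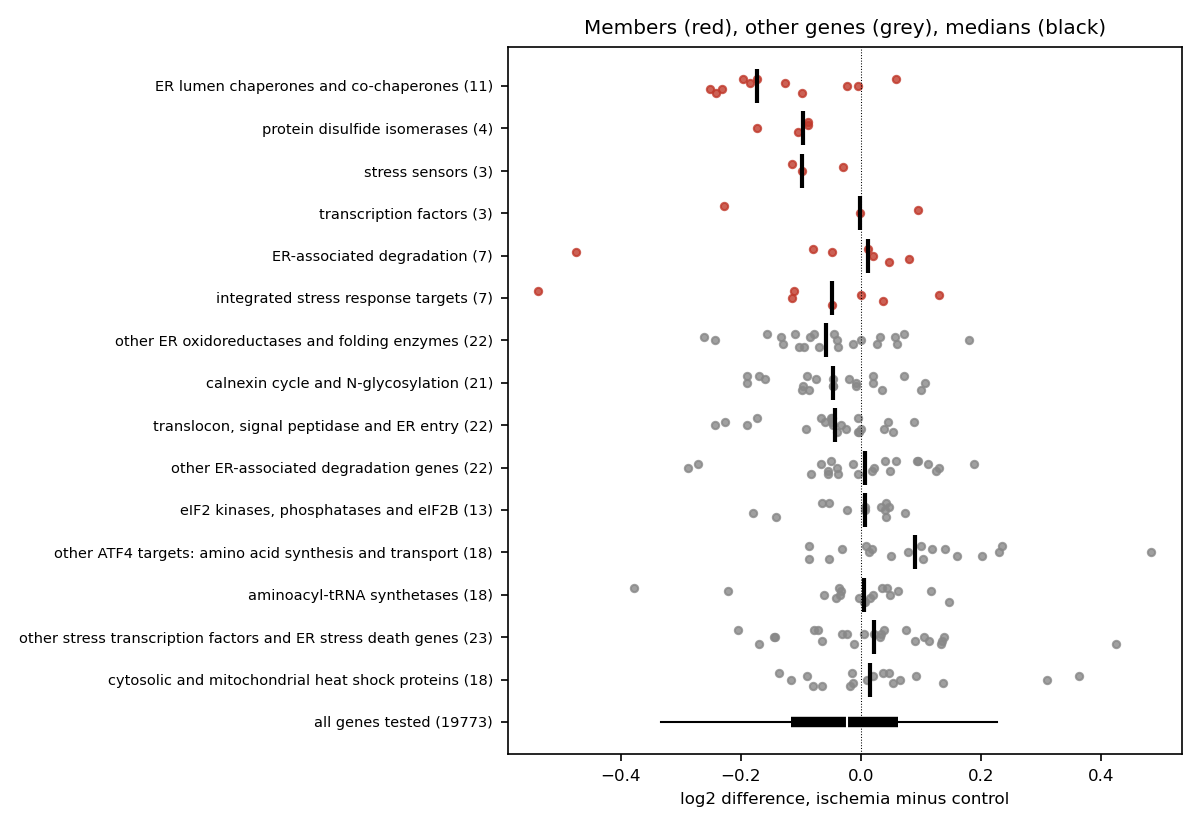
Log2 difference, ischemia minus control, of single genes (points) with list medians (black bars), for the 6 role groups of the 35 genes in red and the 9 lists of other genes in grey; the number measured is in brackets. The bottom bar shows all 19773 genes (thick, quartiles; thin, 5th to 95th percentile; white, median -0.02); the chaperones have the lowest median, -0.17, and the other ATF4 targets the highest, 0.09.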

How the data were processed

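RNA of each cortex was amplified from 50 ng, labelled with Cy3 and hybridised to 1 array, per the labels' protocols. Agilent Feature Extraction 10.7.3.1 turned the scans into spot values, per the submitters' processing notes. The deposited values are spot intensities on a linear scale. The processed signal used here is already background-corrected, per the file headers. The authors' value table, an alternative, is a ratio: in each deposited column the processed signal had been divided by an array constant (spread at most 0.0112%) whose meaning is not stated in these sources. Column medians were 0.0867 to 0.0954 for ischemia and 0.0836 to 0.1003 for control.

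Control spots were removed, repeated spots averaged, and 26 probes with flagged outlier spots dropped, none of them a probe of the 35 genes. Values are the log2 ratio of signal to the array's 75th percentile. Probes well above background on at least 4 of 8 arrays were kept, and the brightest kept probe stood for a gene. Between 47.6% and 51.7% of spots per array were well above background. Precision is limited by the number of arrays. The main test was limma 3.58.1 (lmFit, eBayes, R 4.3.3). Benjamini-Hochberg adjustment ran over all 19773 genes, and the threshold was 0.05. The code was tested on simulated data. Names were updated with RefSeq symbols of GRCm38.p6 (27235 probes by accession, 3581 by symbol, 565 by synonym, 24300 unchanged). Exon and UTR positions of probes were not analysed here.

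The 35 genes, the lists and the motifs were chosen with earlier results of these data known. Values in every array are given for genes with an unadjusted p under 0.05, genes whose groups do not overlap, the sensors and the transcription factors. In each list the 2 genes with the smallest p are named. Values of Manf, Sdf2l1, Derl3, Trib3, Chac1, Herpud1, Sec61b and Cbs per array, and Aldh18a1, Iars and single markers, were added after they had been seen. Alternatives changed the background correction, scaling, probe filter, probe choice, variance model, array weights, replicate block, values and arrays used.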

Additional observations from a re-analysis of the deposited data

Results flagged for a closer look

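In 10 of 106 sets of 4 arrays tested, 1 array lay far from the other 3, by a gap, as a share of the group's range, over Dixon's 95% critical value. Chance flags about 1 set in 20. Among the 35 genes, the gap was 0.839 of the range for Trib3, where control replicate 4 was high, and 0.856 for Manf, where control replicate 1 was high. It was 0.833 for Eif2ak3 and 0.929 for Phgdh, in both of which control replicate 3 was low. In the other lists it was 0.857 for Erp44 (ischemia replicate 3 high), 0.858 for Rpn1 (ischemia replicate 2 low) and 0.969 for Atf5 (ischemia replicate 3 low). For Cebpg it was 0.907 in ischemia and 0.836 in control, with replicate 1 low in both groups. For Hspa9 it was 0.831, with control replicate 3 high.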

How the results depend on the processing

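Under 19 alternatives 0 of the 35 genes passed the adjusted threshold in limma, 24 of 35 kept the sign of their difference in all, and so did 18 of 18 other named genes. Over all genes, against 1 call, median scaling gave 2, a trended and robust variance 19, and normexp, quantile normalization, no filter, a filter on all 8 arrays, the replicate block and the omission of ischemia replicates 1 and 4 gave 0 each. With 1 array left out it was 0 to 1. The count of the 35 that were lower at an unadjusted p under 0.05 was 0 with median scaling, 3 with quantile normalization and 1 to 8 with 1 array left out. Over all genes that count was 1050, 1366 and 1119 to 1769. The count of the 35 below every control array was 1 with normexp, 0 with median scaling, 0 with quantile normalization, 10 without ischemia replicates 1 and 4 and 5 to 9 with 1 array left out. Over all genes the shares were 4.39%, 2.61%, 3.76%, 13.7% and 5.37% to 8.96%. No gene of the 35 was above every control array (0) with normexp, median scaling, the mean of a gene's probes or the authors' value table. The median difference was -0.0584 with normexp and -0.1008 to -0.06 with 1 array left out. The cause of these shifts was not tested.

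The sign of 11 differences turned under some setting. With normexp Ddit3 was at 0.0319, Dnajc3 at 0.0006 and Phgdh at 0.0353. With median scaling Ddit3 was at 0.0017 and Phgdh at 0.0031. With quantile normalization Hyou1 was at 0.0068 and Phgdh at 0.0081. With the mean of probes Derl1 was at -0.0204 and Phgdh at 0.0407. With array weights Herpud1 was at -0.0168, and in the authors' table Phgdh was at 0.001. Without ischemia replicates 1 and 4, Atf6 was at 0.0757, Chac1 at -0.0911, Ppp1r15a at -0.0034, Eif2ak3 at 0.0179 and Hyou1 at 0.0817. With 1 array left out the ranges were -0.0673 to 0.0742 for Ddit3, -0.1105 to 0.0792 for Hyou1, -0.0775 to 0.055 for Phgdh, -0.0086 to 0.0735 for Syvn1, -0.0427 to 0.0631 for Herpud1, -0.1646 to 0.001 for Atf6, -0.0597 to 0.0102 for Dnajc3 and -0.0847 to 0.03 for Eif2ak3.

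Whether equal replicate numbers pair the samples cannot be decided from so few arrays. Deviations from the group means correlated at 0.08, -0.05, 0.29 and 0.39 for numbers 1 to 4. The values for numbers 3 and 4 were the highest of any ischemia and control pair. Only replicates 3 and 4 of the ischemia group correlated best with their own number. With the number as a replicate block, 0 genes passed over all genes. At an unadjusted p under 0.05, 5 of the 35 and 1691 of all genes were then lower.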
